A study of Homo sapiens with 18 samples.

Results

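The 77 nuclear genes named for proteins of the mitochondrial ribosome were followed before and after the PARP inhibitor (PARPi) olaparib. The cells were HCC1937, a breast cancer cell line with mutated BRCA1. The genes were the rows of the count table that mapped to a protein-coding gene whose symbol starts with MRPL or MRPS and a digit, 77 of 35044 rows. All 77 passed the filter on low counts and were among the 18335 genes tested. Of the genes 50 were counted with the large ribosomal subunit and 27 with the small subunit.

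HCC1937-EV carried an empty vector and HCC1937-OE-BRCA1 overexpressed wild-type BRCA1. The 18 libraries came from each line untreated (0 h), at 12 h and at 24 h of the drug, 3 at each of these times. Olaparib is written as the treatment of every library, the 0 h ones included, and the genotype of HCC1937-EV as WT, so the conditions were taken from the sample titles. Nothing in the labels says that the libraries of a condition came from separate cultures, so p-values measure only the spread between these libraries.

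Totals ran from 15081973 to 17571922 counts per library. BRCA1 itself lay between 111 and 126 CPM (read counts scaled to a common library size) in untreated HCC1937-EV and between 122 and 166 CPM in untreated HCC1937-OE-BRCA1, a difference that missed the threshold (log2 fold change 0.24, edgeR adjusted p = 0.0654). At 24 h it lay between 90.9 and 99.5 CPM in HCC1937-EV and between 155 and 169 CPM in HCC1937-OE-BRCA1. Its change from 0 h differed between the lines by 0.54 on the log2 scale (edgeR adjusted p = 0.023), while neither line's own change passed. The 9 epithelial markers checked were all above 1 CPM in every HCC1937-OE-BRCA1 library, with sums of 6419 to 10424 CPM. In HCC1937-EV only KRT8, KRT18 and KRT17 were, with sums of 2425 to 3171 CPM, and EPCAM, KRT5, KRT6B, KRT14 and KRT19 stayed under 1 CPM in every library. The 5 markers of other cell types summed to 91.6 to 146 CPM in HCC1937-EV, where PTPRC was at 0, and to 18.7 to 32.4 CPM in HCC1937-OE-BRCA1. The HCC1937-EV sum was mostly COL1A1, with a mean of 98.6 CPM untreated. Between the untreated lines COL1A1 was lower in HCC1937-OE-BRCA1 (log2 fold change −3.73), while PECAM1 and PTPRC were higher there (2.81 and 7.15, edgeR adjusted p under 0.05 for each). PTPRC had a mean of 1.09 CPM in untreated HCC1937-OE-BRCA1. The effect of the BRCA1 vector and any other difference between the lines therefore cannot be told apart, and the part of either marker list in the results was not tested. At 24 h KRT5, KRT8, KRT18 and CDH1 fell in HCC1937-OE-BRCA1 (log2 fold changes of −0.56 to −0.35), where PECAM1 rose by 0.92, and COL1A1 rose by 0.44 in HCC1937-EV (edgeR adjusted p under 0.05 for each). KRT8, KRT18 and CDH1 were also lower in the difference between the lines, at −0.55, −0.70 and −1.09.

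The mitochondrial ribosome, or mitoribosome, translates the few mRNAs made from mitochondrial DNA, which encode core subunits of the respiratory chain. Its RNA comes from mitochondrial DNA, while every one of its proteins is made in the cytosol from a nuclear gene and imported. Some of the proteins descend from the bacterial ribosome, and others were added during the evolution of mitochondria. By these classes the 77 genes comprised 29 large-subunit genes with a bacterial counterpart, 21 large-subunit genes specific to mitochondria, 16 small-subunit genes with a counterpart and 11 without. MRPS18A and MRPS30 were placed with the large subunit, where their proteins sit despite the names.

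The genes lay on 21 chromosomes and were short, with a median exonic length of 2539 bases against 4654 over all protein-coding genes in the table. Another protein-coding gene started within 1000 bases in the opposite direction for 17 of them (22.1%), against 8.33% of all protein-coding genes. Exons of 40 members overlapped those of another gene, 29 of them on the opposite strand, and whether the counting used strand is not given in the sources used here.

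First, the promoters were examined, because the genes are scattered over the genome and their products meet in 1 particle. RefSeq promoter windows (GRCh38.p14, 250 bases before to 50 after the start) were found for 68 of the 77 genes. The ETS-type letters CCGGAAG, which GABPA and related factors bind, stood on either strand in 28 of the 68 (41.2%) and in 16% of the windows of 13298 protein-coding genes. The letters AAGATGG, the core of a YY1 site, stood in 23 (33.8%) against 6.79%. GCGCANGCG, read by NRF1, stood in 13 (19.1%) against 12.4%, and the E box CACGTG in 6 (8.82%) against 9.35%. The motifs can share a few end letters, and none of the 4 contains another. A match is a string of letters and was not shown to be bound.

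The 150 bases upstream of the start are shown for 6 genes on which later comparisons turn, in the direction of transcription. MRPS11 and MRPL46 start next to each other in opposite directions on chromosome 15 and were both lower in untreated HCC1937-OE-BRCA1. MRPL47 and MRPL51 were higher there, MRPS34 had the highest level per kilobase in untreated HCC1937-EV, and MRPL36 shares its promoter region with NDUFS6, a gene of respiratory complex I. Capitals mark any of the 4 motifs on either strand, so that CTTCCGG is the ETS motif read from the other strand, CCATCTT the YY1 motif and CGCCTGCGC the NRF1 motif.
MRPS11 (chr15:88467558-88467707, plus strand): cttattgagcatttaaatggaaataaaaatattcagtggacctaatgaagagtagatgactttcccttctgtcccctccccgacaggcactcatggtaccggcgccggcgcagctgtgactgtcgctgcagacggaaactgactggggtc
MRPL46 (chr15:88467389-88467538, minus strand): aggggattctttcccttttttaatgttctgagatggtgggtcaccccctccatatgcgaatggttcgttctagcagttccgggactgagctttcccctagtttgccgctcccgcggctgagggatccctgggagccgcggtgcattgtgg
MRPL47 (chr3:179604639-179604788, minus strand): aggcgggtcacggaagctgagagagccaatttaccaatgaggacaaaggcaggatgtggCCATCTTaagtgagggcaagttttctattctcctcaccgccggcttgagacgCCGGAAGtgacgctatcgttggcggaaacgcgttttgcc
MRPL51 (chr12:6493263-6493412, minus strand): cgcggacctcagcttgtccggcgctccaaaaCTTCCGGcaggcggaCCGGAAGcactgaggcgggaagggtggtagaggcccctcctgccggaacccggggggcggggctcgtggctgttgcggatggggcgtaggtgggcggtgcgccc
MRPS34 (chr16:1773135-1773284, minus strand): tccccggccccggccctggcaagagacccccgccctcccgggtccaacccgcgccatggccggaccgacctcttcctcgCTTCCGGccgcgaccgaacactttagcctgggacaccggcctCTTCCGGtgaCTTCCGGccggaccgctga
MRPL36 (chr5:1799838-1799987, minus strand): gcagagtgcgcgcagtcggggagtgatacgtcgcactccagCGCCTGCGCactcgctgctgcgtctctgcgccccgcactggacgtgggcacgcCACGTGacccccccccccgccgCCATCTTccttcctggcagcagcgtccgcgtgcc
The MRPS34 window held the ETS motif 3 times and the MRPL51 window 2 times. The MRPL36 window held the NRF1, E box and YY1 motifs, and the adjacent MRPS11 and MRPL46 windows held none of the 4 in the bases shown. In the longer windows used for the counts MRPL46 also held a YY1 motif.

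Next, the level of each gene was compared within the untreated lines, per kilobase of exon so that long and short genes could be set side by side. The length merged all annotated exons of a gene, whether or not these cells use them. A rank per kilobase therefore also depends on the annotation. The median gene stood at 20.3 CPM per kilobase in HCC1937-EV and 15.7 in HCC1937-OE-BRCA1. In HCC1937-EV the highest was MRPS34 at 84.7 ± 15.1 CPM per kilobase (SD, n = 3), a mitochondria-specific protein of the small subunit. MRPS35 (77.6 ± 8.23), MRPL37 (71.5 ± 1.45), MRPL51 (69.4 ± 8.27) and MRPL15 (67.1 ± 2.07) followed. The ranges of MRPS34, MRPS35, MRPL37 and MRPL51 in the 3 libraries overlapped, so their order was within the spread.

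In HCC1937-OE-BRCA1 the order began with MRPL51 at 115 ± 31.5 CPM per kilobase and MRPL37 at 104 ± 15.2. MRPL14 (79.6 ± 25.2), MRPL47 (75.6 ± 17.9) and MRPL24 (63.4 ± 11.6) came next, and neighbours in this order again overlapped. MRPS24 was the lowest in HCC1937-EV at 0.197 ± 0.144 CPM per kilobase, below MRPL38 (1.68 ± 0.12), MRPL46 (2.18 ± 0.27), MRPS17 (3.59 ± 0.124) and MRPL45 (4.47 ± 4.41). In HCC1937-OE-BRCA1, MRPL23 (0.508 ± 0.238) and MRPS24 (0.523 ± 0.176) were lowest and overlapped, followed by MRPL46 (0.778 ± 0.14), MRPL38 (1.23 ± 0.206) and MRPS11 (2.39 ± 0.199). MRPS24 lies inside the read-through gene URGCP-MRPS24, which had at most 0.123 CPM, and reads in shared exons cannot be assigned to 1 gene alone.

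**Figure D1:**
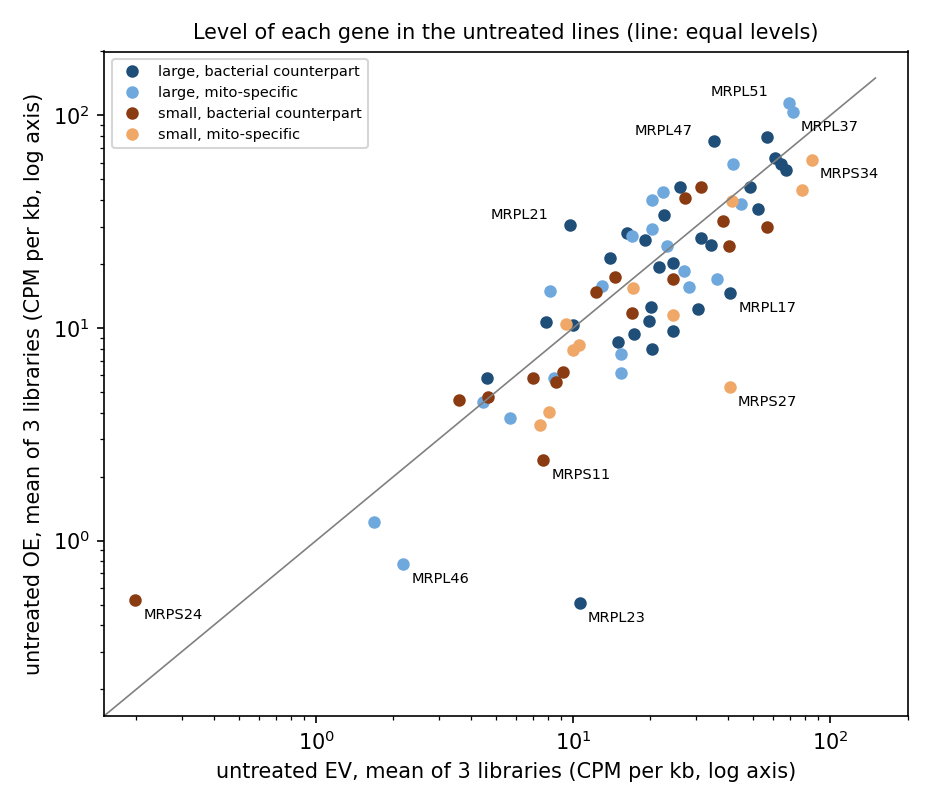
Mean level of each of the 77 genes in untreated HCC1937-EV (horizontal) and untreated HCC1937-OE-BRCA1 (vertical), in CPM per kilobase of exon on log axes, 3 libraries each, coloured by subunit and by whether the protein has a bacterial counterpart. Points lie on both sides of the line of equal levels, and MRPL23 (log2 fold change −4.38) and MRPS27 (−2.95) fall farthest below it.

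The untreated lines differed in 55 of the 77 genes, 19 higher and 36 lower in HCC1937-OE-BRCA1 (edgeR's quasi-likelihood test, adjusted p under 0.05). Of all genes tested 72.7% were called in this comparison, 39.4% higher and 33.3% lower, so the total share of members called (71.4%) was near the background. The median log2 fold change of the members was −0.27 and that of all genes 0.11. The small subunit had a median of −0.34, with 5 genes higher and 15 lower, and the large subunit −0.14, with 14 higher and 21 lower. Of the 11 small-subunit genes specific to mitochondria 8 were lower and none higher. Since CPM is a share of each library, less of these mRNAs per cell and more of other mRNAs cannot be told apart.

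MRPL23, a protein near the exit of the peptide tunnel, differed most. It stood at 30.5, 33.7 and 30.4 CPM in untreated HCC1937-EV and at 0.8, 2.22 and 1.51 CPM in untreated HCC1937-OE-BRCA1, 2 groups far apart (log2 fold change −4.38, SE 0.29, edgeR adjusted p = 1.25e-11). MRPS27, a pentatricopeptide repeat protein of the small subunit, stood at 265, 259 and 269 CPM against 40.2, 33.1 and 29.6 CPM (log2 fold change −2.95, SE 0.13, edgeR adjusted p = 3.19e-14). These 2 genes were nearly silent or several-fold lower in every library of HCC1937-OE-BRCA1, treated or not, with MRPL23 between 0.566 and 3.5 CPM.

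The neighbouring pair MRPS11 and MRPL46 was lower together. MRPS11, whose bacterial counterpart lies on the platform of the small subunit, read 39.5, 45.6 and 44.1 CPM in HCC1937-EV and 12.2, 14.3 and 13.9 CPM in HCC1937-OE-BRCA1 (log2 fold change −1.68, edgeR adjusted p = 8.6e-12). MRPL46, a mitochondria-specific protein of the large subunit, read 14.7, 15.3 and 12 CPM against 4.43, 6.04 and 4.53 CPM (−1.48, edgeR adjusted p = 2.07e-07). MRPL17, a large-subunit protein with a bacterial counterpart, went from 92.2, 92.3 and 94.6 CPM to 28.8, 37.3 and 34 CPM (−1.48, edgeR adjusted p = 8.06e-10). None of these groups overlapped.

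In the other direction, MRPL21 (a large-subunit protein with a bacterial counterpart) stood at 27, 26.1 and 29.2 CPM in HCC1937-EV and 69.4, 110 and 79.1 CPM in HCC1937-OE-BRCA1 (log2 fold change 1.65, edgeR adjusted p = 3.12e-08). MRPL47 read 54, 43.5 and 47.2 CPM against 123, 111 and 76.1 CPM (1.10, edgeR adjusted p = 3.89e-06). MRPL55 and MRPL49, both specific to mitochondria, were higher by 0.98 and 0.96 on the log2 scale (edgeR adjusted p = 3.97e-06 and 2.76e-09). MRPS24 was called as well (1.39, edgeR adjusted p = 0.0243), but its libraries overlapped, at 0.186 to 0.927 CPM against 0.862 to 1.76 CPM, and the call was lost when replicate 1 or 3 of untreated HCC1937-EV or replicate 3 of untreated HCC1937-OE-BRCA1 was left out.

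Many of these differences were shared with genes nearby. Across the 76 members with at least 3 tested neighbours within 1000000 bases, the member's log2 fold change and the median of its neighbours had a Spearman rho of 0.65, and 53 of the 76 had the same sign. Neighbouring members share some of the same genes, so this is a description without a test. The same values were not computed over all genes, so the agreement is not shown to be particular to the members. MRPS27 had 6 neighbours with a median of −2.09, MRPL17 had 17 with a median of −1.50, and MRPL21 had 17 with a median of 1.17. MRPL43 (log2 fold change −1.32) had 24 neighbours with a median of −1.26. MRPL23, with −4.38, had 18 neighbours with a median of 0.49, and MRPS24, with 1.39, had 20 with a median of −0.39.

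Then the response to olaparib was followed, beginning with the summed level of the 77 genes. In HCC1937-EV the sum was 4735, 4719 and 4768 CPM untreated, 5392, 5106 and 5885 CPM at 12 h, and 5985, 5497 and 5023 CPM at 24 h. Every treated HCC1937-EV library was above every untreated one. In HCC1937-OE-BRCA1 the sum was 3842, 4827 and 3928 CPM untreated, 4009, 3688 and 3556 CPM at 12 h, and 3575, 3731 and 3382 CPM at 24 h. Untreated replicate 2 of HCC1937-OE-BRCA1 stood apart from the other 2, with a median gene 0.21 above the untreated mean on the log2 scale. Across genes with a mean above 1 CPM, its deviation from the line mean had a Spearman rho of −0.38 with exonic length. Replicates 1 and 3 had 0.20 and −0.09, and the part of this trend in the sum was not tested. At 24 h all 3 libraries lay below the 3 untreated ones.

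**Figure D2:**
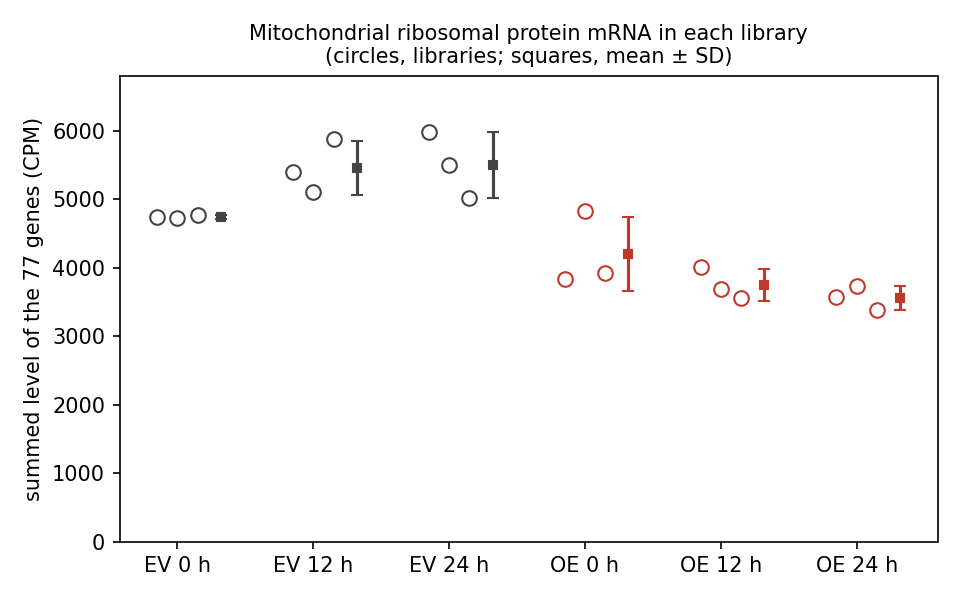
Summed level of the 77 genes in each library, in CPM, by line and hours of olaparib (circles are libraries, squares and bars the mean ± SD of 3). HCC1937-EV (EV) rises from 4719 to 4768 CPM untreated to 5023 to 5985 CPM at 24 h, and HCC1937-OE-BRCA1 (OE) lies at 3382 to 3731 CPM at 24 h.

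At 12 h in HCC1937-EV no member passed the threshold in edgeR's test, where 0.0436% of all genes (8 genes) did, 0.0273% higher and 0.0164% lower. The log2 fold change was positive for 64 members and negative for 13, with a median of 0.21 against 0 for all genes, and 29 members (37.7%) had an unadjusted p under 0.05, as 16.2% of all genes did. Without 12 h replicate 3 the median was 0.14. The 3 treated libraries were all above the 3 untreated ones for 32 members (10.1% of all genes) and all below for none (9.65% of all genes). DESeq2 called 3 members, and 1.51% of all genes. The lowest p-values belonged to MRPL12, with a log2 fold change of 1.64 (edgeR adjusted p = 0.142), and MRPS36, with 0.63 (edgeR adjusted p = 0.151). MRPS36 was included by its symbol, and its protein is known as a subunit of the 2-oxoglutarate dehydrogenase complex. The lowest among negative values were MRPL45 at −1.49 (edgeR adjusted p = 0.264) and MRPS27 at −0.15 (edgeR adjusted p = 0.59).

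At 24 h in HCC1937-EV 19 members rose and 3 fell. The rising share was 24.7% of members, while 8.62% of all genes rose, 5.12% fell and 13.7% were called in either direction. Among protein-coding genes 10.6% rose and 16.3% were called, beside 28.6% of members called. With at least 10 counts required in every library, 23 of 75 members were called, and 23.7% of all genes. Positive values were found for 57 members and negative ones for 20, with a median of 0.20 against 0 for all genes. The treated libraries were all above the untreated ones for 39 members (20.8% of all genes) and all below for 4 (19% of all genes). The called genes came from all 4 classes, with 8 higher and 3 lower among large-subunit genes with a bacterial counterpart, 5 higher among mitochondria-specific large-subunit genes, and 3 higher in each small-subunit class. Of the 37 members whose exons overlap no other gene 12 rose and 2 fell.

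MRPL12, the stalk protein of the large subunit that recruits translation factors, rose most. It stood at 13.6, 21.2 and 15.2 CPM untreated, 19.8, 58 and 78.6 CPM at 12 h, and 72.7, 63.5 and 49.7 CPM at 24 h. The 24 h libraries were all above the untreated ones, a 3.72-fold rise (log2 fold change 1.89, SE 0.38, edgeR adjusted p = 0.00551). The 12 h libraries were spread, with replicate 1 inside the untreated range.

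MRPS26, a mitochondria-specific protein of the small subunit, went from 41.7, 51.3 and 47.7 CPM to 87.4, 89.4 and 78.4 CPM (log2 fold change 0.86, SE 0.20, edgeR adjusted p = 0.0107). MRPL14, which the assembly factor MALSU1 binds on the maturing large subunit, went from 50.1, 58.1 and 55.8 CPM to 112, 95.3 and 82.5 CPM (0.82, SE 0.22, edgeR adjusted p = 0.0213). MRPL51 went from 92.9, 115 and 115 CPM to 211, 183 and 169 CPM (0.80, SE 0.17, edgeR adjusted p = 0.0068). MRPL51 has exons that overlap NCAPD2 on the opposite strand. In none of the 3 genes did the groups overlap.

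MRPL41 had 55.8, 48 and 54.2 CPM untreated and 103, 95.2 and 72.8 CPM at 24 h (log2 fold change 0.78, edgeR adjusted p = 0.0305). It had the highest GC content of the members, 71.9%, and with the offset for GC content described below its log2 fold change was 0.11 (edgeR adjusted p = 0.642). The 3 genes that fell were large-subunit genes with a bacterial counterpart. MRPL19 went from 123, 99.2 and 115 CPM to 85.8, 78.5 and 77.2 CPM (−0.48, edgeR adjusted p = 0.0351), MRPL3 from 188, 170 and 169 CPM to 151, 133 and 127 CPM (−0.36, edgeR adjusted p = 0.0305), and MRPL35 from 82.2, 75.6 and 75.6 CPM to 62.9, 63.7 and 62.6 CPM (−0.30, edgeR adjusted p = 0.0493). With the offset MRPL35 had −0.15 (edgeR adjusted p = 0.154).

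The number of calls at 24 h in HCC1937-EV rested on single libraries. Leaving out untreated replicate 1, 2 or 3 left 1, 13 or 6 calls, and leaving out 24 h replicate 1 or 2 left 5 or 4, while MRPL12 was called in all 6 such fits. MRPS26 and MRPL51 were called in 5 of the 6, MRPL14 in 2, MRPL41, MRPL19 and MRPL3 in 1 each, and MRPL35 in 0.

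**Figure D3:**
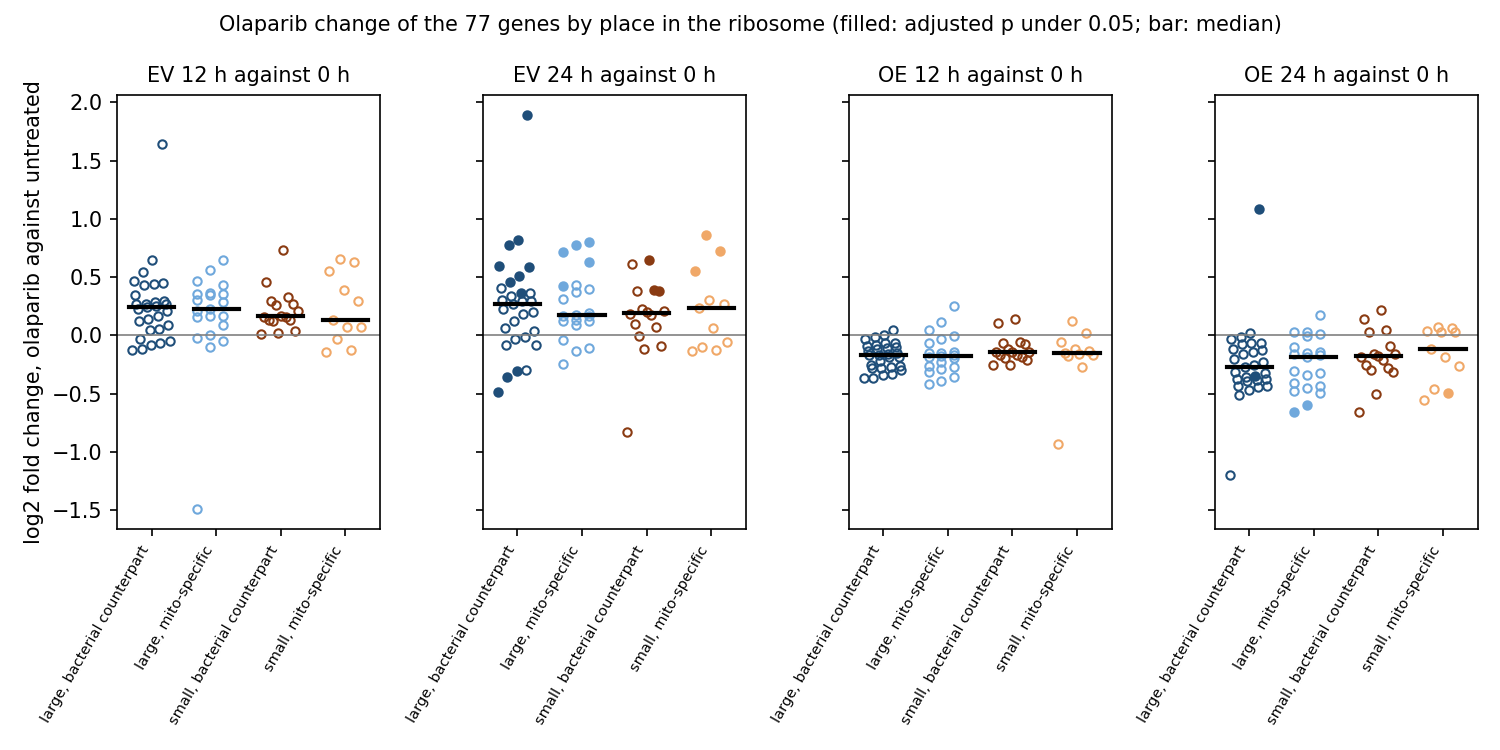
Log2 fold change of each of the 77 genes after 12 h and 24 h of olaparib in HCC1937-EV (EV) and HCC1937-OE-BRCA1 (OE), by subunit and by whether the protein has a bacterial counterpart. Filled points had an edgeR adjusted p under 0.05 and bars are class medians, which were above 0 in EV (0.13 to 0.27) and below 0 in OE (−0.27 to −0.11).

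In HCC1937-OE-BRCA1 no member passed the threshold at 12 h in edgeR's test, where 2.31% of all genes did, 1.7% higher and 0.605% lower. Values were negative for 68 members and positive for 9, with a median of −0.16 against 0 for all genes, and 10 members (13%) had an unadjusted p under 0.05, near the 11.7% of all genes. Without untreated replicate 2, which stood apart above, the median was −0.03. DESeq2 called 1 member, and 3.65% of all genes. All 3 treated libraries were below the untreated ones for 6 members (5.87% of all genes) and above for 1 (9.21% of all genes). The lowest p-values belonged to MRPL3 at −0.36 (edgeR adjusted p = 0.0856) and MRPS18B at −0.93 (edgeR adjusted p = 0.167), and among positive values to MRPL49 at 0.12 and MRPL38 at 0.25 (edgeR adjusted p = 0.68 and 0.688).

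At 24 h in HCC1937-OE-BRCA1 1 member rose and 4 fell, 5 of 77 (6.49%) against 8.26% of all genes called. Over all genes 4.71% rose and 3.55% fell, beside 5.19% of members that fell. Negative values were found for 62 members and positive ones for 15, with a median of −0.20 against 0.02 for all genes, and −0.13 without untreated replicate 2. All 3 libraries were below the untreated ones for 15 members (9.87% of all genes) and above for 2 (14% of all genes).

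MRPL52, specific to mitochondria, went from 33.6, 61.7 and 48.7 CPM to 32.6, 32.7 and 26.2 CPM (log2 fold change −0.65, SE 0.18, edgeR adjusted p = 0.0291). MRPL51 went from 136, 232 and 167 CPM to 118, 130 and 106 CPM (−0.60, SE 0.17, edgeR adjusted p = 0.0318). MRPS23 went from 48, 64.9 and 46.7 CPM to 34.5, 38.7 and 39.9 CPM (−0.50, SE 0.12, edgeR adjusted p = 0.0157). The untreated libraries were all above the treated ones, with untreated replicate 2 the highest in all 3 genes. Without that replicate the log2 fold changes of MRPL52, MRPL51 and MRPS23 were −0.43, −0.36 and −0.33 (edgeR adjusted p = 0.21, 0.245 and 0.128).

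MRPL3 fell in this line too, from 177, 170 and 137 CPM to 124, 126 and 129 CPM (−0.35, edgeR adjusted p = 0.0451). It was the only member called in the same direction in both lines, and its call in HCC1937-EV held in 1 of the 6 fits that left out 1 library. MRPL23, nearly silent here, rose from 0.8, 2.22 and 1.51 CPM to 3.5, 3.13 and 3 CPM (1.09, SE 0.33, edgeR adjusted p = 0.046), and this call was lost in 5 of the 6 fits that left out 1 library. MRPL12 stood at 12.6, 41.5 and 32 CPM untreated and 14.6, 11.8 and 11.1 CPM at 24 h, with overlapping groups and a log2 fold change of −1.20 that missed the threshold (edgeR adjusted p = 0.0622). The count of 5 also rested on single libraries. Leaving out untreated replicate 1, 2 or 3 gave 24, 1 or 2 calls, and leaving out 24 h replicate 1, 2 or 3 gave 0, 1 or 1.

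To ask whether the lines responded differently, the change in HCC1937-EV was subtracted from that in HCC1937-OE-BRCA1 within the model. At 24 h this difference was past the threshold for 29 members, all 29 lower in HCC1937-OE-BRCA1 and none higher. That is 37.7% of members, while 19.4% of all genes were called, 11.2% lower and 8.16% higher. Among protein-coding genes 23.2% were called, 13.8% lower. With at least 10 counts required in every library, 35 of 75 members were called, and 32% of all genes. The difference was negative for 63 of the 77 members, with a median of −0.44 against 0.05 for all genes. The called genes were 19 of 50 in the large subunit and 10 of 27 in the small one, and 16 of the 37 members whose exons overlap no other gene. At 12 h no member was called by edgeR (0.518% of all genes were, 0.376% higher and 0.142% lower), although 72 of 77 values were negative, the median was −0.33 and 32 members (41.6%) had an unadjusted p under 0.05, as 14.7% of all genes did. DESeq2 called 2 at 12 h, and 1.95% of all genes.

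The difference at 24 h was largest for MRPL12 (−3.10, SE 0.55, edgeR adjusted p = 0.00134). MRPL51 (−1.40, SE 0.24), MRPL14 (−1.33, SE 0.32), MRPS26 (−1.32, SE 0.28) and MRPL52 (−1.28, SE 0.26) came next, with edgeR adjusted p between 0.00104 and 0.00701. MRPL51 and MRPL52 were the 2 members that rose in HCC1937-EV and fell in HCC1937-OE-BRCA1, each past the threshold on its own. The count of 29 fell to 15 or 17 without untreated replicate 2 or 24 h replicate 3 of HCC1937-OE-BRCA1, and to 18, 19 or 19 without untreated replicate 3 or 24 h replicate 1 or 2 of HCC1937-EV, while each of MRPL12, MRPL51, MRPL14, MRPS26 and MRPL52 was called in all 12 fits that left out 1 library. At 12 h the same difference was −2.01 for MRPL12 (edgeR adjusted p = 0.102) and −0.82 for MRPL51 (edgeR adjusted p = 0.142), and among positive values 1.08 for MRPL45 and 0.11 for MRPL49 (edgeR adjusted p = 0.598 and 0.721).

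Side by side, 48 members had a positive value in HCC1937-EV and a negative one in HCC1937-OE-BRCA1 at 24 h, 6 the reverse, 9 were positive in both and 14 negative in both. All 19 genes that rose in HCC1937-EV had a negative value in HCC1937-OE-BRCA1.

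**Figure D4:**
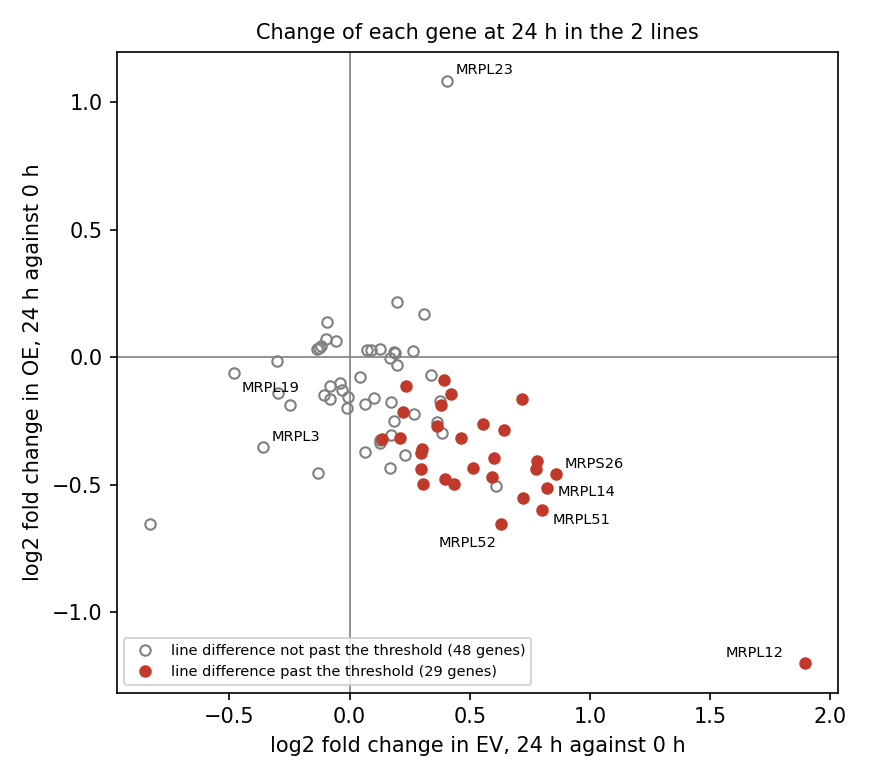
Log2 fold change at 24 h of olaparib in HCC1937-EV (horizontal) and HCC1937-OE-BRCA1 (vertical) for the 77 genes, with filled points where the difference between the lines had an edgeR adjusted p under 0.05 (29 genes). The filled points lie in the lower right, with MRPL12 at 1.89 and −1.20.

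The changes moved with the GC content of the transcripts and with exonic length. Across genes with a mean above 1 CPM, the deviation of a library from the mean of its line correlated with GC content by a Spearman rho that ran from −0.59 to 0.62 over the 18 libraries. Untreated HCC1937-EV libraries had −0.55, −0.22 and −0.41 and those at 24 h 0.26, 0.58 and 0.40, while untreated HCC1937-OE-BRCA1 libraries had −0.59, 0.29 and 0.55 and those at 24 h −0.29, −0.39 and −0.44. With exonic length the coefficients were 0.29, 0.28 and 0.29 in untreated HCC1937-EV and −0.34, −0.23 and 0.015 at 24 h. For HCC1937-OE-BRCA1 they were 0.20, −0.38 and −0.09 untreated and 0.10, 0.04 and 0.28 at 24 h. Across the 77 members, rho between GC content and log2 fold change at 24 h was 0.60 in HCC1937-EV and −0.43 in HCC1937-OE-BRCA1, and 0.55 and −0.37 across 12631 protein-coding genes of the same libraries. Between exonic length and log2 fold change it was −0.29 and 0.29 across the members. Of the 26 members with the lowest GC content (33.5% to 43.8%) 1 rose and 3 fell at 24 h in HCC1937-EV, with a median of −0.05. Of the 26 with the highest (51.8% to 71.9%) 10 rose and none fell, with a median of 0.39.

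Each library's smooth trend with GC content and exonic length was then fitted to its deviation from the mean of its line. When this trend was entered as an offset, rho with GC content across the members became −0.06 and 0.11, and rho with exonic length 0.08 and 0.01. Taken within each line, the offset does not remove a trend that separates the lines. The median change at 24 h was then 0.16 in HCC1937-EV, with 20 members called (14% of all genes were), of which 15 were among the 22 called without the offset. In HCC1937-OE-BRCA1 it was −0.23, with 24 called, 23 of them lower, including all 5 called without it, while the share over all genes went from 8.26% to 17%. The difference between the lines had a median of −0.32, and 34 members were called (18.2% of all genes were), 22 of them among the 29. With the offset MRPL12 had 1.42 in HCC1937-EV (edgeR adjusted p = 0.00202) and −0.92 in HCC1937-OE-BRCA1 (edgeR adjusted p = 0.0305).

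**Figure D5:**
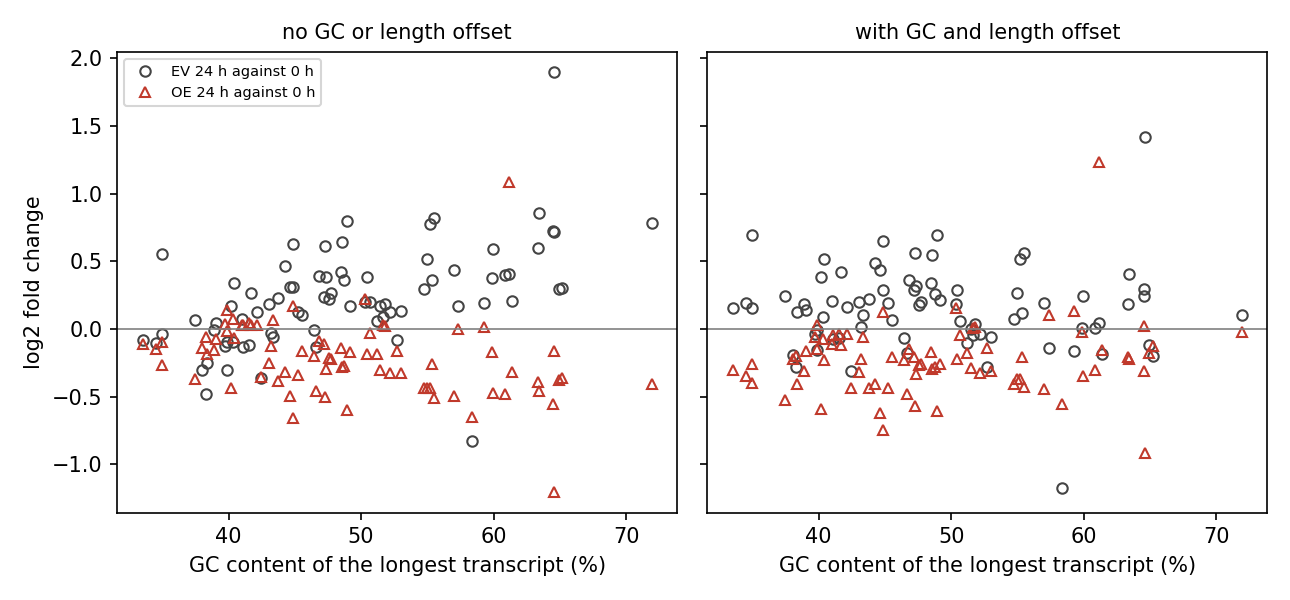
Log2 fold change at 24 h of olaparib against GC content of the longest transcript (%) for the 77 genes in HCC1937-EV (EV, circles) and HCC1937-OE-BRCA1 (OE, triangles), without (left) and with (right) an offset for GC content and exonic length. On the left EV values rise and OE values fall with GC content (rho 0.60 and −0.43), and on the right the trends are near 0 (−0.06 and 0.11).

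By promoter motif, the members called at 24 h were spread. In HCC1937-EV 9 of the 28 genes with the ETS motif rose, with a median change of 0.25, and 8 of the 40 without it, with a median of 0.19. In HCC1937-OE-BRCA1 the 4 genes that fell, among them MRPL51 with the ETS motifs shown above, all carried it, and the medians were −0.31 with and −0.18 without. With the NRF1 motif 2 of 13 rose in HCC1937-EV, with the YY1 motif 5 of 23 and with the E box 0 of 6. These are counts without a test.

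Finally, the other genes of mitochondrial translation were read in the fit without the offset. The part of the trends with GC content and length in these lists was not tested. The 5 mitoribosomal proteins that carry other names included CHCHD1 and AURKAIP1, which rose at 24 h in HCC1937-EV by 0.70 and 0.65 on the log2 scale (edgeR adjusted p = 0.0146 and 0.018), and the other 3 did not pass. Of 27 mitoribosome assembly factors 7 (25.9%) rose and none fell in HCC1937-EV at 24 h, with a median of 0.25. Over all genes 8.62% rose and 5.12% fell there. MALSU1, which keeps the immature large subunit from joining the small one, rose by 0.86 (edgeR adjusted p = 0.0033), from a mean of 28.5 to 51.9 CPM. MTG1, a GTPase of large-subunit assembly, rose by 0.52 (edgeR adjusted p = 0.0314). In HCC1937-OE-BRCA1 none of the 27 was called (8.26% of all genes were), with a median of −0.05. The difference between the lines was negative and past the threshold for 7 (25.9%, against 11.2% of all genes), including MALSU1 at −1.14 (edgeR adjusted p = 0.00271). MRM2, an rRNA methyltransferase, had the largest difference at −2.87 (edgeR adjusted p = 0.0244), but its group means lay between 0.309 and 1.21 CPM.

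Of 16 translation factors and related genes 2 (12.5%) fell in HCC1937-EV at 24 h and none rose, where 5.12% of all genes fell and 8.62% rose. GUF1 was lower by 0.70 and GFM1, an elongation factor, by 0.31 on the log2 scale (edgeR adjusted p = 0.00885 and 0.0493). In the difference between the lines GUF1 had 0.86 and TUFM −0.50 (edgeR adjusted p = 0.0109 and 0.0348). A further list held 19 genes that serve the charging of mitochondrial tRNAs, aminoacyl-tRNA synthetases and QRSL1. In HCC1937-EV at 24 h 2 of them rose and 2 fell (10.5% each way). FARS2 and CARS2 had 0.42 each, GARS1 −0.37 and KARS1 −0.28 (edgeR adjusted p between 0.0207 and 0.0353). The difference between the lines was −0.74 for CARS2, −0.53 for AARS2 and −0.50 for FARS2 (edgeR adjusted p between 0.0051 and 0.0361). GARS1 and KARS1 also serve the cytosol. None of the 15 genes for replication and expression of mitochondrial DNA was called in either line at 24 h, with medians of 0.03 and −0.05. In the difference between the lines POLRMT and TBRG4 were lower, at −0.81 and −0.51 (edgeR adjusted p = 0.0122 and 0.01715). For the lists of this paragraph, in order, 12.5%, 15.8% and 13.3% were called in that difference, and 19.4% of all genes were.

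Of the 13 mRNAs that the mitoribosome translates, 5 (38.5%, against 5.12% of all genes) fell in HCC1937-EV at 24 h and none rose, with a median of −0.38. MT-ND4L and MT-ND2, both subunits of complex I, fell by 0.98 and 0.62 on the log2 scale (edgeR adjusted p = 0.0086 and 0.00712). In HCC1937-OE-BRCA1 none was called, and the difference between the lines was positive and past the threshold for 7 (53.8%, against 8.16% of all genes). Neither of the 2 mitochondrial rRNAs was called at 24 h in either line, with log2 fold changes between −0.35 and −0.03.

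Among 9 promoter factors of the nuclear mitochondrial genes, ESRRA rose by 0.68 in HCC1937-EV and fell by 0.59 in HCC1937-OE-BRCA1 at 24 h (edgeR adjusted p = 0.0147 and 0.0337), and the difference was −1.26 (edgeR adjusted p = 0.002). ESRRA encodes the nuclear receptor ERRα, an activator of mitochondrial genes. GABPA, which binds the ETS motif, fell by 0.55 in HCC1937-EV (edgeR adjusted p = 0.0468), and its line difference was positive, at 0.82 (edgeR adjusted p = 0.0309). PPRC1, a coactivator, fell by 0.34 in HCC1937-EV (edgeR adjusted p = 0.0147). PPARGC1A, a coactivator of these factors, had a mean of 32.2 CPM in untreated HCC1937-EV and was at 0 in HCC1937-OE-BRCA1.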

How the data were processed

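RNA of 18 libraries was sequenced, 3 for each of 6 conditions. The deposited values are raw read counts per gene, which the authors made from the reads, and no normalization had been applied. The submitters' processing notes name HISAT2, featureCounts, DESeq2 and the builds GRCh38 and hg38, without versions or roles, and the annotation and strand setting are not given in the sources used here. The single-library files held the same values as the joint table in all 18 cases. Ensembl IDs were matched to symbols for 34966 of 35044 rows, and exonic lengths, GC content of the longest transcript and gene positions came from GENCODE 29, which held 33888 of them.

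Counts were scaled by the TMM method, filtered with filterByExpr and tested with edgeR 4.0.16 in R 4.3.3 (quasi-likelihood test, 1 mean per condition, all 18 libraries in the fit, Benjamini-Hochberg adjustment over 18335 genes, threshold 0.05). CPM (counts per library scaled to 1000000) were computed from the scaled library sizes. The biological coefficient of variation was 12.9%. Spearman coefficients across genes are descriptions, since genes are not independent replicates. The script was tested on simulated counts with known changes. Alternatives included DESeq2 1.42.0, other filters, an offset for GC content and length fitted with mgcv 1.9.3, a replicate block and leaving out each library.

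The genes and lists were chosen with earlier results of these data known. Named genes were, in every comparison, the called genes that rose or fell most, at most 5 each way (where fewer than 3 were called, the 2 with the lowest p in each direction), the 5 highest and lowest per kilobase in each untreated line, the MRPS18 paralogues, MRPL12, MRPL58, MRPS12, MRPS36 and MRPL45 as anchors of known roles, and up to 2 called genes of each other list. Other named genes were chosen after their values were seen. Promoter sequences came from RefSeq.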

Additional observations from a re-analysis of the deposited data

Results flagged for a closer look

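The response to 24 h of olaparib differed between the lines by edgeR's test of the difference itself for 29 of the 77 genes. The value, the log2 change in HCC1937-OE-BRCA1 minus that in HCC1937-EV, was −3.10 for MRPL12, −1.40 for MRPL51, −1.33 for MRPL14, −1.32 for MRPS26 and −1.28 for MRPL52. With the offset for GC content and length these 5 genes had −2.33, −1.29, −0.99, −0.63 and −1.40, each with an edgeR adjusted p under 0.05.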

How the results depend on the processing

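With replicate numbers as a block, edgeR called 22 members in HCC1937-EV at 24 h, 4 in HCC1937-OE-BRCA1 at 24 h (MRPL23 was lost, adjusted p = 0.053), 27 in the line difference at 24 h and 56 between the untreated lines. Libraries with the same number did not deviate together (r from −0.42 to 0.53 over 45 pairs), so the numbers were not taken to pair them.

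The median log2 fold changes kept their direction in all alternatives run. Without a filter on low counts there were 14 members called in HCC1937-EV at 12 h, 1 and 23 in HCC1937-OE-BRCA1 at 12 h and 24 h, and 11 in the line difference at 12 h (of all genes 2.33%, 1.59%, 6.1% and 1.84%). DESeq2's Wald test called 3, 1, 14 and 2 in the same order (1.51%, 3.65%, 11.8% and 1.95%). The offset for GC content and length gave 1, 4, 24 and 7 (0.731%, 6.51%, 17% and 3.29%), and with the replicate block added 5, 24 and 6 in the last 3 of these. With only the compared conditions in the fit, 38 were called in HCC1937-EV at 24 h and 1 in HCC1937-OE-BRCA1 at 24 h, and of all genes 34.9% and 4.97%. Requiring an absolute log2 fold change over 0.5 left 14 and 3.

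Leaving out 1 library at a time gave 0 to 6 calls in HCC1937-EV at 12 h (6 without 12 h replicate 1), 1 to 20 at 24 h, 0 to 1 in HCC1937-OE-BRCA1 at 12 h and 0 to 24 at 24 h. The line difference had 0 to 14 calls at 12 h (14 without untreated replicate 1 of HCC1937-OE-BRCA1) and 15 to 37 at 24 h. MRPL45, uncalled, ranged from −0.11 (without untreated replicate 3 of HCC1937-EV) to 1.503 in the line difference at 12 h. The cause of these shifts was not tested. MRPL45, MRPS24, MRPL12, MRPS12 and MRPS18B varied most between replicates (coefficients of variation of 51.5%, 35.8%, 31.7%, 29.3% and 26.2%, median member 11.7%), which limits what could be detected for them.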

Other observations

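The 3 MRPS18 paralogues, related proteins that are all built into the human mitoribosome, differed in level. MRPS18A, the large-subunit form, stood at 25.7, 27.4 and 24.9 CPM in untreated HCC1937-EV and 32.7, 41.8 and 38.5 CPM in untreated HCC1937-OE-BRCA1 (log2 fold change 0.54, edgeR adjusted p = 0.000533), with groups that did not overlap. MRPS18C differed by 0.02 between the untreated lines, with an edgeR adjusted p of 0.886. In HCC1937-OE-BRCA1, MRPS18B read 27.9, 29.8 and 29.7 CPM untreated and, without overlap, 11.6, 23 and 11.1 CPM after 12 h of olaparib. It read 22.4, 29.5 and 25.1 CPM after 24 h. Its 12 h value of −0.93 missed the threshold, and no paralogue was called after olaparib. MRPL58, a peptidyl-tRNA hydrolase built into the large subunit, and MRPS12, a protein of the decoding centre, were not called in any comparison with all 18 libraries and no offset for GC content and length. With it MRPS12 was called in HCC1937-EV at 24 h (−1.17, edgeR adjusted p = 0.0331), and MRPL58 in HCC1937-OE-BRCA1 at 24 h (−0.29, edgeR adjusted p = 0.0312) and between the untreated lines (−0.33, edgeR adjusted p = 0.00222). The offset was taken within each line, so the value between the untreated lines is not corrected for a trend that separates them. Without the offset MRPS12 had −0.83 in HCC1937-EV and −0.65 in HCC1937-OE-BRCA1 at 24 h (edgeR adjusted p = 0.108 and 0.281).

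Genes that start next to a member in the opposite direction were read at 24 h, in the fit without the offset. NDUFS6, 34 bases from MRPL36 and a subunit of complex I, rose by 0.83 in HCC1937-EV (edgeR adjusted p = 0.0314) and fell by 0.89 in HCC1937-OE-BRCA1 (edgeR adjusted p = 0.0296), while MRPL36 had 0.30 and −0.36 (edgeR adjusted p = 0.105 and 0.0839) and both were called in the line difference, at −1.71 and −0.66. EME1, 6 bases from MRPL27, rose by 0.49 beside 0.46 for MRPL27 in HCC1937-EV. TCP1, IGHMBP2, SKA3 and EME2, each beside a member that rose in that line (MRPL18, MRPL21, MRPL57 and MRPS34), had −0.03, 0.15, 0.04 and 0.20, none of them called. PNPLA7 beside MRPL41 and SLC7A7 beside MRPL52, members that rose as well, had 0.28 and −1.14 and were not called.

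The 81 proteins of the cytosolic ribosome gave the same signs as the mitochondrial ones in the fit without the offset. The part of the trends with GC content and length in their changes was not tested. In HCC1937-EV at 24 h 39 (48.1%) rose and none fell (median 0.37), where 8.62% of all genes rose. In HCC1937-OE-BRCA1 12 (14.8%) fell and none rose (median −0.38), where 3.55% of all genes fell. The line difference was negative and past the threshold for 55 (67.9%, against 11.2% of all genes), with a median of −0.76. Of the 33 rows for pseudogenes of mitoribosomal proteins the highest reached 1.82 CPM.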
